A study of Mus musculus with 6 samples.

Results

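The proteasome genes were examined in bone marrow erythroblasts that carried or lacked the miR-144/451 locus. Members were chosen by name: every gene with a symbol of the Psma, Psmb, Psmc, Psmd or Psme series, or Psmf1, that a probe set named alone. This gave 43 genes, read by 92 probe sets, of 18193 measured genes. A probe set that named Psme2 together with its copy Psme2b was left out, so the beta subunit of the PA28 activator has no value here. Each gene is represented by its brightest probe set over the 6 arrays.

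The samples were 3 wild-type mice (WT, numbered 497, 504 and 550 in the titles) and 3 mice with a knockout of the miR-144/451 locus (KO, numbered 493, 548 and 551). The RNA came from Ter119+/CD71+/FSC-high cells of fresh bone marrow; this gate takes large red cell precursors that carry the transferrin receptor CD71. Total RNA was labelled with biotin and read on 1 Affymetrix Mouse Genome 430 2.0 array per mouse. Both groups were untreated, and strain, age, sex and litter were not used here. The labels tie no array to a litter or a sorting day, so p-values measure the spread between these arrays.

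The proteasome is the protease that degrades proteins tagged with ubiquitin. Its 20S core is a barrel of alpha rings, which gate entry, and beta rings, which carry the cutting sites; its 19S cap has a base of ATPases that unfold substrates and a lid that removes ubiquitin. Under interferon, and in immune cells, the catalytic beta subunits Psmb5, Psmb6 and Psmb7 are replaced in new particles by Psmb8, Psmb9 and Psmb10, which form the immunoproteasome and favour peptides that fit MHC class I. Maturing red cells rely on ubiquitin-dependent degradation to clear much of their proteome. Psmb8 is a candidate target of miR-451.

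The microRNAs of the deleted locus are shown because their seeds, bases 2 to 8 in capitals, define which transcripts they could pair with. The sequences are RefSeq's for GRCm38.p6 on the plus strand of chromosome 11, at chr11:78073186-78073207 for miR-451a, chr11:78073047-78073066 for miR-144-3p and chr11:78073010-78073032 for miR-144-5p, from the other arm of the same hairpin. They share no seed. Their sites in Psmb8 or any other member were not analysed here.
miR-451a: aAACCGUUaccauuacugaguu
miR-144-3p: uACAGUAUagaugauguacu
miR-144-5p: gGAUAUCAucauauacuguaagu

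No proteasome gene passed the test: limma called 0 of 43 members at an adjusted p under 0.05, where 0.385% of all genes were called. At an unadjusted p under 0.05 there were 3 members higher in KO (Psmb3, Psmd2 and Psmc5) and 1 lower (Psmb10), where 8.34% of all genes were higher and 12.7% lower at that level (21.0% in all). That count of 4 was 0 without WT 497, 6 without WT 504, 1 without WT 550, KO 493 or KO 551, and 2 without KO 548. With each array centred on its median, which shifted the median of all genes by 0.11, it was 14 higher and 0 lower. The share of all genes at that level is not given for these alternatives. Differences, given throughout as log2 KO minus WT, ran from -0.45 for Psmb9 to 0.32 for Psmb3. The 2 ends of that range belong to different parts of the particle: subunits of the standard proteasome lay slightly higher in KO and those of the immunoproteasome slightly lower. Of the 43 members, 33 had a difference above 0, with a median of 0.11, beside 43.7% and a median of -0.04 over all genes. The 3 KO arrays lay above the 3 WT arrays in 15 members and below them in 2, where 12.5% and 16.2% of all genes did so (28.8% in either direction). Most members are bright, and such separation upward was commoner among bright genes. At a mean log2 of at least 10, a level chosen after the values were seen, it held for 791 of 3556 genes and 15 of 34 members. Separation downward held there for 663 genes and 1 member. With an intensity trend and robust prior limma called 2 members, Psmb3 (adjusted p = 0.0436) and Psmd2 (adjusted p = 0.0456), where it called 4.42% of all genes, and 2.37% of all genes as higher.

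**Figure D1:**
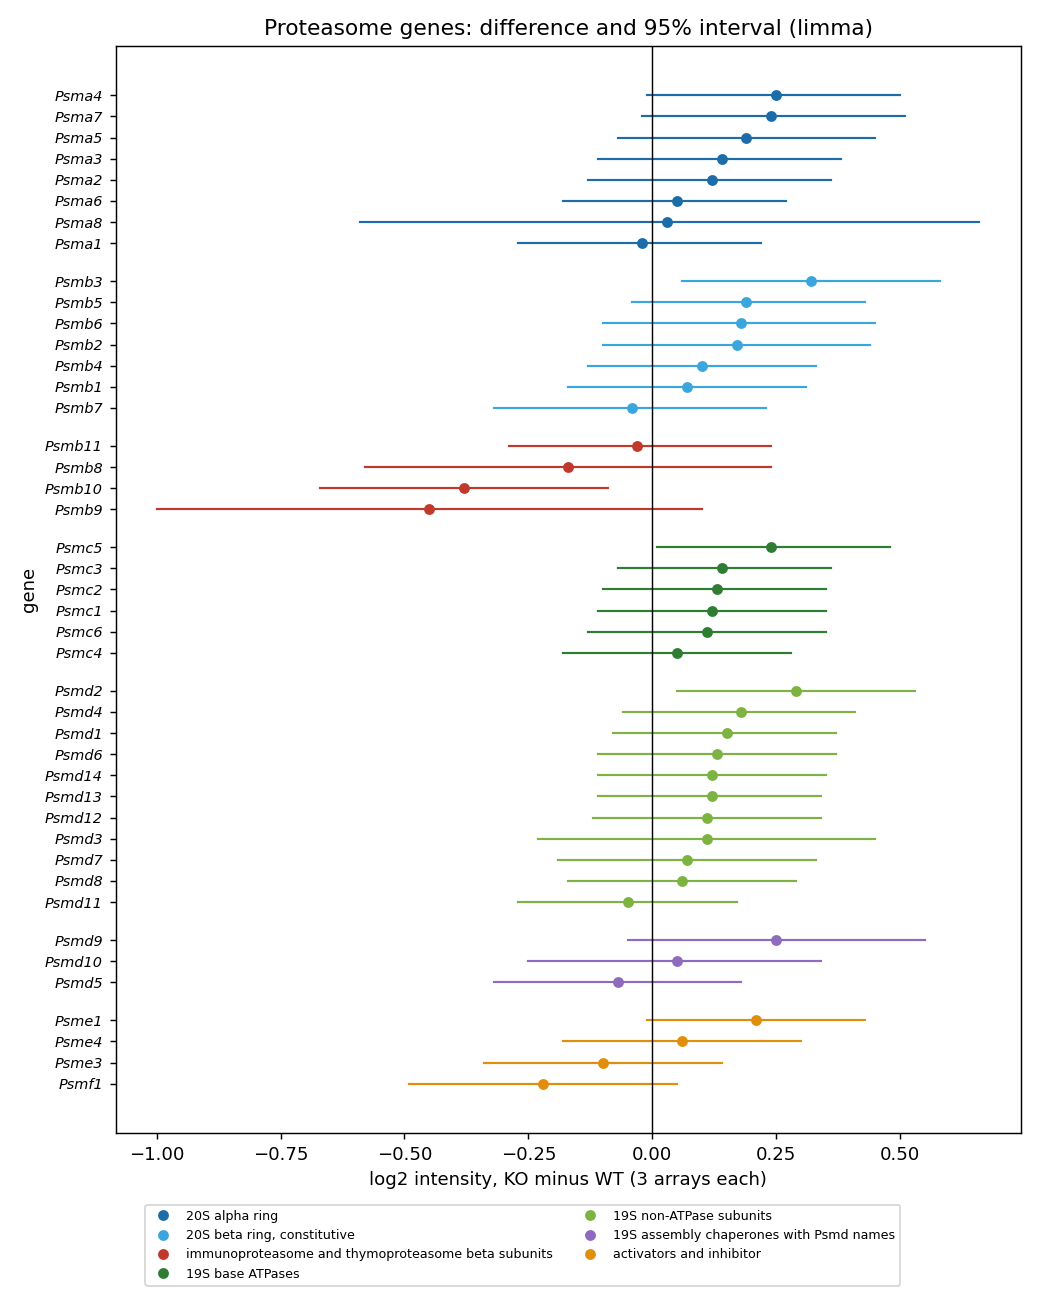
Log2 intensity difference, KO minus WT, of each of 43 proteasome genes, by role (colour); points are estimates from 3 arrays per genotype and lines are limma's 95% intervals. The points of the ATPases lie between 0.05 and 0.24, and those of the immunoproteasome group between -0.45 and -0.03.

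The arrays differed in ways that bear on small differences. Median log2 intensity over all probe sets ran from 5.73 to 5.78 on the WT arrays and from 5.62 to 5.69 on the KO arrays. That gap is of like size to the members' median difference of 0.11 but opposite in direction. Centring each array on its median moved the members' median to 0.22. How these arrays were scaled against each other is not known. The actin 3' minus 5' signal, a sign of RNA integrity, was 1.65 to 1.67 and 1.82 to 1.86 on them. For Gapdh that signal overlapped between genotypes, with 1.09 the highest value in WT and 1.05 in KO. The first principal component over genes (41.6% of variance) separated the genotypes, with WT 497 farthest out at -40.0. On the second (20.5%) WT 497 (18.4) and KO 493 (27.1) stood apart from the other 4 arrays (-20.2 to -2.06). Of 7 measured erythroblast markers 6 were bright, among them Tfrc, which encodes CD71, at 12.98 in WT and 12.94 in KO. Markers of other cells were present too: 9 neutrophil markers had a median log2 level of 12.47. Their part in the differences below was not tested.

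The standard 26S particle, taken as 14 subunits of the 20S core and 17 of the 19S cap, lay higher in KO in 28 of 31 subunits, with a median difference of 0.12. Of all genes 43.7% lay above 0. The count of higher subunits was 26 to 31 and their median 0.10 to 0.23 over the alternatives tried, and 0 of the 31 were called. Relative to each gene's WT mean, the median of the 31 subunits was -0.02, 0.07 and -0.07 in WT 497, 504 and 550. It was 0.09, 0.11 and 0.16 in KO 493, 548 and 551. The KO arrays were the higher ones, but WT 504 lay just under the lowest of them. These subunits are bright, so genes of like brightness were read beside them. Over 1841 genes with a mean log2 intensity of at least 11 the median difference was 0.00, and over 28 members at that level it was 0.12. Of the 1841 genes 920 lay above 0 and 352 had all KO arrays higher, against 23 and 12 of the 28 members. That level was chosen after the values were seen.

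**Figure D2:**
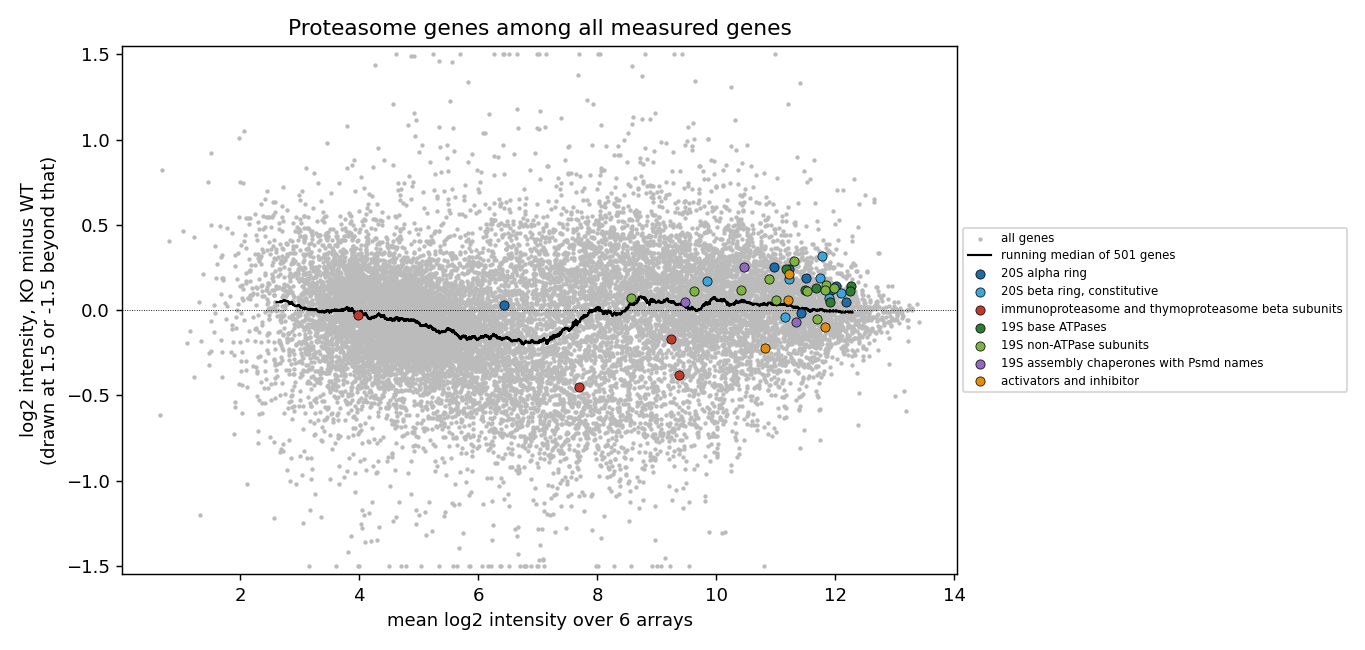
Log2 difference, KO minus WT, against mean log2 intensity over 6 arrays for all measured genes (grey) and 43 proteasome genes (coloured by role), with a running median (black line). Most standard subunits lie above the line at mean levels over 11, while Psmb8, Psmb9 and Psmb10 lie below it.

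In the alpha ring 7 of 8 genes had a difference above 0 and 0 were called. Psma4 was at 10.78, 10.98 and 10.77 in WT 497, 504 and 550 and at 11.10, 11.03 and 11.14 in KO 493, 548 and 551. The groups did not overlap, and the difference was 0.25 ± 0.11 (SE, n = 3 per group, adjusted p = 0.265). Psma7 was at 11.07, 11.22 and 10.99 in WT and 11.37, 11.24 and 11.40 in KO, again without overlap (0.24 ± 0.11, adjusted p = 0.283). Its other probe set was at 0.14. Psma5 overlapped at 1 array, WT 504 at 11.53 against KO 548 at 11.50 (0.19 ± 0.11, adjusted p = 0.381). Psma3 (0.14), Psma2 (0.12), Psma6 (0.05) and Psma1 (-0.02) had smaller differences. Psma8, an alpha subunit of the testis, was at 6.41 ± 0.33 in WT and 6.44 ± 0.45 in KO (SD, n = 3), so its difference of 0.03 has a 95% interval of -0.59 to 0.66.

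Of the 7 constitutive beta subunits 6 lay above 0. Psmb3, a structural subunit, had the largest difference above 0 of all members. It was at 11.59, 11.76 and 11.48 in WT 497, 504 and 550 and at 11.94, 11.89 and 11.96 in KO 493, 548 and 551. All KO arrays exceeded all WT arrays, and the spread was wider in WT (SD 0.14) than in KO (SD 0.04). The difference was 0.32 ± 0.11, a 1.25-fold higher intensity, with a 95% interval of 0.06 to 0.58 (adjusted p = 0.194). A second, dimmer probe set of Psmb3 gave 0.29 ± 0.15 (adjusted p = 0.327), with overlapping groups. Psmb2 (0.17), Psmb4 (0.10) and Psmb1 (0.07), which also do not cut, came after it.

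Among the cutting subunits, Psmb5, which cuts after hydrophobic residues and is the main target of proteasome inhibitors, was at 11.62, 11.72 and 11.59 in WT 497, 504 and 550 and at 11.78, 11.84 and 11.89 in KO 493, 548 and 551. The groups did not overlap (0.19 ± 0.10, adjusted p = 0.33). Psmb6, the caspase-like subunit, was at 11.12, 11.28 and 11.03 in WT and 11.39, 11.21 and 11.36 in KO, with WT 504 above KO 548 (0.18 ± 0.11, adjusted p = 0.436). Psmb7, the trypsin-like subunit, did not follow them. It was at 11.22, 11.32 and 11.01 in WT and 11.18, 11.14 and 11.10 in KO, a difference of -0.04 ± 0.12 (adjusted p = 0.87), whose sign turned when arrays were centred on their medians (0.07).

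The immunoproteasome subunits went the other way. Psmb10, which takes the place of Psmb7, was at 9.72, 9.42 and 9.56 in WT 497, 504 and 550 and at 9.16, 9.09 and 9.31 in KO 493, 548 and 551. All KO arrays lay under all WT arrays, and the difference was -0.38 ± 0.12, with a 95% interval of -0.67 to -0.09 (adjusted p = 0.175). Psmb9, which takes the place of Psmb6, was at 8.39, 7.71 and 7.67 in WT and 7.52, 7.19 and 7.70 in KO. WT 497 was far above the rest, and KO 551 lay between the 2 lowest WT arrays (-0.45 ± 0.23, adjusted p = 0.328). Without WT 497 the difference of Psmb9 was -0.22 (adjusted p = 0.586) and that of Psmb10 -0.30 (adjusted p = 0.345). Both KO and WT arrays were bulk samples, in which fewer cells of a type and less RNA per cell cannot be told apart.

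Psmb8, the candidate miR-451 target and the counterpart of Psmb5, was at 9.59, 9.24 and 9.16 in WT 497, 504 and 550 and at 9.44, 8.99 and 9.05 in KO 493, 548 and 551. The groups overlapped: KO 493 exceeded 2 of the WT arrays. The difference was -0.17 ± 0.17 (adjusted p = 0.628), and its 95% interval of -0.58 to 0.24 reaches at most a 0.24 higher log2 level in KO. It was -0.04 without WT 497, -0.09 without KO 548 and -0.31 without KO 493, and did not turn above 0 in any alternative tried. The second probe set of Psmb8 had a mean log2 signal of 2.98 in WT and 3.03 in KO, under the 25th percentile of every array (4.30 to 4.40), and a difference of 0.05. Psmb11, the beta subunit of the thymus, was also under that percentile, at 3.99 ± 0.11 in WT and 3.96 ± 0.09 in KO (SD, n = 3).

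Set against the subunit it replaces, each immunoproteasome subunit was lower in KO. The difference of Psmb9 minus that of Psmb6 was -0.63, that of Psmb10 minus Psmb7 -0.34, and that of Psmb8 minus Psmb5 -0.36. Relative to the WT mean, the Psmb9 and Psmb6 contrast was 0.49, -0.35 and -0.14 in WT 497, 504 and 550 but -0.65, -0.80 and -0.44 in KO 493, 548 and 551, so the genotypes did not overlap. The other 2 pairs overlapped. For Psmb10 and Psmb7, WT 504 (-0.28) lay under KO 551 (-0.17). For Psmb8 and Psmb5, KO 493 (-0.03) lay above WT 504 (-0.17) and WT 550 (-0.12), while KO 548 and KO 551 were at -0.54 and -0.53. Without WT 497 the contrasts were -0.39 for Psmb9 and Psmb6, -0.28 for Psmb10 and Psmb7 and -0.22 for Psmb8 and Psmb5. These contrasts are descriptions with no test.

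**Figure D3:**
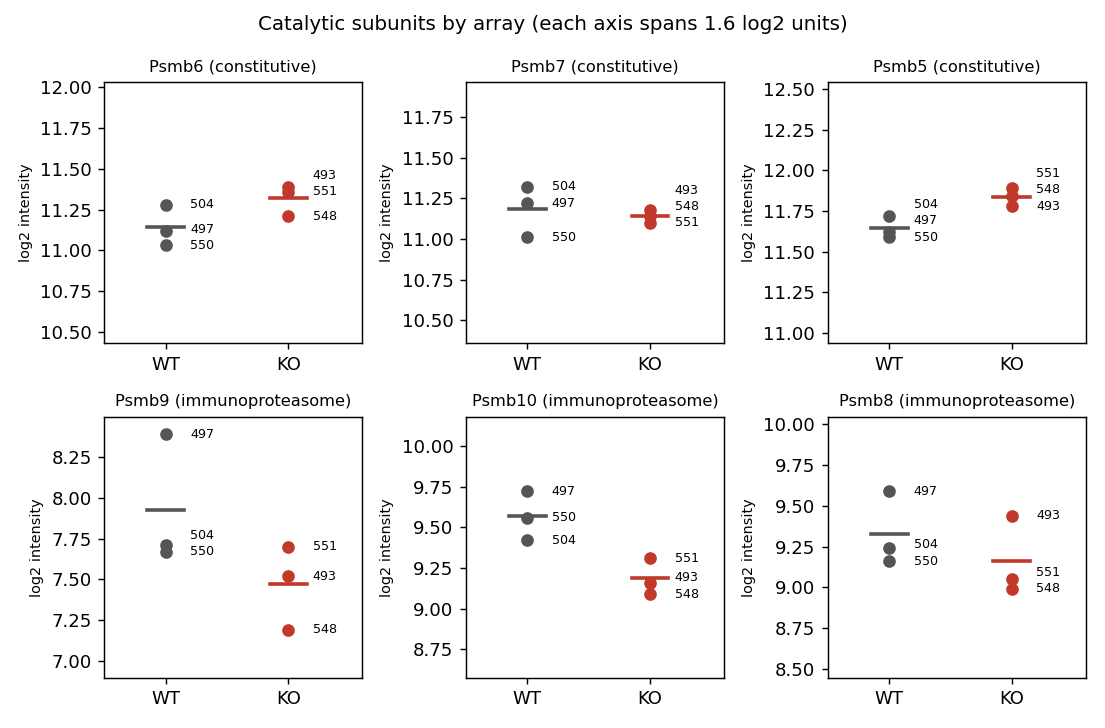
Log2 intensity of the 3 constitutive cutting subunits (top) and the immunoproteasome subunits that replace them (bottom) on each array, with the array's number; bars are means of 3 arrays. Psmb5 is higher and Psmb10 lower in KO without overlap, and WT 497 is the highest array for Psmb8, Psmb9 and Psmb10.

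All 6 ATPases of the 19S base, the ring that unfolds substrates and threads them into the core, lay above 0, between 0.05 and 0.24. In 4 of them the groups did not overlap, where 12.5% of all genes had all KO arrays higher. All 6 have a mean log2 of at least 11, and at that level 920 of 1841 genes lay above 0 and 352 had all KO arrays higher. Psmc5 was at 11.06 ± 0.05 in WT (SD, n = 3), with 11.10 on its highest array, WT 550, and at 11.23, 11.33 and 11.34 in KO 493, 548 and 551. Each KO array exceeded each WT array (0.24 ± 0.10, 95% interval 0.01 to 0.48, adjusted p = 0.236). Psmc3 was at 12.21, 12.18 and 12.19 in WT and 12.31, 12.36 and 12.34 in KO. Its SDs of 0.02 and 0.03 are far below the moderated SE of 0.09 on its difference of 0.14 (adjusted p = 0.429), since limma draws each gene's variance toward that of all probe sets. Psmc2 (0.13) and Psmc1 (0.12) also did not overlap, while Psmc6 (0.11) and Psmc4 (0.05) did.

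Of the 11 other subunits of the 19S cap, 10 lay above 0. In 6 of these the groups did not overlap, where 12.5% of all genes had all KO arrays higher, and 791 of 3556 genes with a mean log2 of at least 10. Psmd2, a base scaffold that docks ubiquitin shuttle proteins, was at 11.12, 11.17 and 11.18 in WT 497, 504 and 550 and at 11.37, 11.55 and 11.41 in KO 493, 548 and 551. The KO arrays were all higher (0.29 ± 0.10, 95% interval 0.05 to 0.53, adjusted p = 0.198). Its second probe set, at a mean log2 signal of 4.98, gave 0.12, and the mean of both gave 0.20 (adjusted p = 0.295). Psmd4, a ubiquitin receptor, was at 10.72, 10.86 and 10.80 in WT and 11.02, 10.93 and 10.96 in KO (0.18 ± 0.10, adjusted p = 0.365). All 3 of its probe sets had differences of 0.16 to 0.24. Psmd1, the other large scaffold, was at 0.15 ± 0.10 (adjusted p = 0.436) and Psmd14, the deubiquitinase of the lid, at 0.12 ± 0.10 (adjusted p = 0.532); neither overlapped. The others were Psmd6 (0.13), Psmd13 (0.12), Psmd12 (0.11), Psmd3 (0.11), Psmd7 (0.07), Psmd8 (0.06) and Psmd11 (-0.05).

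Psmd11, a lid subunit, had 8 probe sets that disagreed. Its brightest was at 11.74, 11.69 and 11.71 in WT 497, 504 and 550 and at 11.63, 11.66 and 11.69 in KO 493, 548 and 551 (-0.05 ± 0.09). The next brightest was at 10.32, 10.32 and 10.54 in WT and 10.85, 10.99 and 10.79 in KO, higher on every KO array (0.48 ± 0.12, adjusted p = 0.117). With the intensity trend that probe set was called (adjusted p = 0.0232). Another 3, at mean log2 signals of 8.22, 7.48 and 5.89, were lower on every KO array (-0.27, -0.26 and -0.28), and 2 dim ones at 4.69 and 4.38 were higher on every KO array (0.38 and 0.37). The array therefore gives no single direction for Psmd11. Over all 92 member probe sets limma called 0, where 0.355% of all probe sets were called. An unadjusted p under 0.05 was reached by 6 higher and 6 lower, where 7.61% and 12.2% of all probe sets did so (19.8% in all). Of these, 3 of the 6 higher and 2 of the 6 lower belong to Psmd11.

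The 19S assembly chaperones, which build the ATPase ring and leave the finished particle, showed no shared direction. Psmd9 was at 0.25 ± 0.13 (adjusted p = 0.323), Psmd10, known as gankyrin, at 0.05 ± 0.12 (adjusted p = 0.869) and Psmd5 at -0.07 ± 0.10 (adjusted p = 0.752). All 3 overlapped between genotypes.

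The regulators that bind the ends of the core diverged. Psme1, the alpha subunit of the PA28 activator that assists the immunoproteasome, was at 11.14, 11.13 and 11.09 in WT 497, 504 and 550 and at 11.29, 11.33 and 11.36 in KO 493, 548 and 551. It was higher on each KO array (0.21 ± 0.09, adjusted p = 0.278), unlike Psmb8, Psmb9 and Psmb10. Psmf1, the inhibitor PI31, was at 10.92, 10.80 and 11.07 in WT and 10.66, 10.79 and 10.68 in KO. The groups did not overlap, but WT 504 and KO 548 nearly met (-0.22 ± 0.11, adjusted p = 0.332). With arrays centred on their medians it was -0.11 (adjusted p = 0.618). All 4 probe sets of Psmf1 were below 0, and the second brightest gave -0.36 ± 0.10 (adjusted p = 0.149). Psme3, the nuclear activator PA28 gamma, was at -0.10 ± 0.10 (adjusted p = 0.63) and Psme4, the activator PA200, at 0.06 ± 0.10 (adjusted p = 0.784).

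Agreement between probe sets of a gene varied beyond Psmd11. Of 43 members 20 had 1 probe set and 23 had more. The further probe sets of Psma7 (0.14), Psmb4 (0.15), Psmc4 (0.16) and Psmd6 (0.04), all bright, had the sign of the representative. Others departed from it: Psma5 had a probe set at a mean of 10.83 with 0.00 against 0.19, and Psmc6 one at 9.88 with -0.06 against 0.11. A probe set of Psma1 at a mean of 6.90 was at -0.45 ± 0.12 (adjusted p = 0.138), against -0.02 for the brightest. A probe set of Psme4 at 7.79 was at -0.44 ± 0.15 (adjusted p = 0.183), against 0.06. Both were lower on every KO array.

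Chromosome 11, which carries the deleted locus, holds 8 members, of which 6 were above 0 and 0 called; their median difference was 0.11, beside 0.12 for the 35 members elsewhere. Of all 1443 genes measured on chromosome 11, 629 were above 0 and 807 below, with a median of -0.03. Of these 1443 genes 23 were called by limma, where 70 of all 18193 genes (0.385%) were. At an unadjusted p under 0.05, 137 were higher and 201 lower, where 8.34% and 12.7% of all genes were. Counted in measured genes from the locus, the 8 members run from Psme4 at -538 and Psmb6 at -125 on one side to Psmd11 at 52, Psmb3 at 270, Psmd3 at 297, Psme3 at 393, Psmc5 at 494 and Psmd12 at 516 on the other. Of the 3 members higher at an unadjusted p under 0.05, Psmb3 and Psmc5 lie on chromosome 11 and Psmd2 on chromosome 16. Psmb8 and Psmb9 lie together on chromosome 17, with Tap1 and Tap2.

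Genes that build, feed or regulate the proteasome were read from lists of 49 measured genes. Limma called 0 of them, where 0.385% of all genes were called. At an unadjusted p under 0.05 there were 7 higher and 8 lower, where 8.34% of all genes were higher and 12.7% lower. All but 1 of the lower ones belong to the interferon list below. All 5 assembly factors of the 20S core lay above 0 (median 0.13), with Psmg1 at 0.42 ± 0.18 (adjusted p = 0.253), Psmg3 at 0.21 ± 0.12 (adjusted p = 0.364) and Pomp, the chaperone that matures the core, at 0.13 ± 0.11 (adjusted p = 0.521). Among 9 proteins that bind the particle the median was -0.01. Of these, Ecpas, an adaptor of the 26S particle, was at 0.45 ± 0.13 (adjusted p = 0.143) and Zfand2a, a stress-inducible proteasome binder, at 0.39 ± 0.10 (adjusted p = 0.134). Both were higher on each KO array.

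Of 8 measured genes for ubiquitin activation and delivery, 6 lay above 0. At an unadjusted p under 0.05, 3 were higher, where 8.34% of all genes were. Ubqln1, a shuttle that carries ubiquitinated proteins to the proteasome, was at 10.15, 10.06 and 10.11 in WT 497, 504 and 550 and at 10.55, 10.60 and 10.49 in KO 493, 548 and 551. The groups lay well apart (0.44 ± 0.10, adjusted p = 0.102), and the fits with the intensity trend (adjusted p = 0.019) and without dim probe sets, those under a mean log2 of 6 (adjusted p = 0.0332), called it. Those fits called 4.42% and 5.61% of all genes they tested. Uba6, a ubiquitin-activating enzyme, was at 0.40 ± 0.10 (adjusted p = 0.13), and was called without dim probe sets (adjusted p = 0.0494).

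Transcription factors of proteasome genes differed in sign. Nfe2l1 encodes NRF1, which raises proteasome genes when the proteasome is impaired. It was at 9.98, 9.93 and 10.13 in WT 497, 504 and 550 and at 9.54, 9.71 and 9.53 in KO 493, 548 and 551. It was lower on each KO array (-0.42 ± 0.11, adjusted p = 0.133), and it lies on chromosome 11, as Irf1 does. Nfe2l2 encodes the related NRF2. It was at 9.97, 9.77 and 9.82 in WT and 10.26, 10.35 and 10.21 in KO, higher on each KO array (0.42 ± 0.11, adjusted p = 0.127). The intensity trend fit called Nfe2l2 (adjusted p = 0.0388), and the fit without dim probe sets did so as well (adjusted p = 0.0494). Bach1, of the same list, was at 0.31 and was called by the intensity trend fit only (adjusted p = 0.0226). Of the 12 genes of this list 10 lay below 0, with a median of -0.10.

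The partners of the immunoproteasome in interferon signalling and MHC class I loading lay lower: 13 of 15 genes were below 0, with a median of -0.37, and 7 had an unadjusted p under 0.05, where 12.7% of all genes were lower at that level. The count was 4 without KO 548. Ifngr1, a chain of the interferon gamma receptor, was at 9.39, 9.16 and 9.28 in WT 497, 504 and 550 and at 8.60, 8.63 and 8.71 in KO 493, 548 and 551. This was the clearest separation in the list (-0.63 ± 0.11, adjusted p = 0.07), and the fits with the intensity trend (adjusted p = 0.0211) and without dim probe sets (adjusted p = 0.0249) called it. Its partner chain Ifngr2 was at -0.68 ± 0.18 (adjusted p = 0.133). Tap1, a subunit of the peptide transporter that immunoproteasome products use, was at -0.48 ± 0.14 (adjusted p = 0.155), while Tap2 was at 0.00 ± 0.13. Irf1, the interferon regulatory factor that activates Psmb9 and Tap1, was at 8.59, 7.79 and 7.78 in WT 497, 504 and 550 and at 7.50, 7.36 and 7.34 in KO 493, 548 and 551 (-0.65 ± 0.23, adjusted p = 0.195). Its highest value, like that of Psmb8, Psmb9 and Psmb10, was on WT 497.

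Most markers of immune cells, which express the immunoproteasome, also had differences below 0, as 10127 of all 18193 genes did. The summed linear intensity of 10 B cell markers ran from 5898 to 10507 in WT but from 4180 to 5669 in KO, with WT 497 the highest; 9 of 10 lay below 0, with a median of -0.62. For 9 T and NK cell markers the sums were 1657 to 2382 in WT and 955 to 1301 in KO (8 of 9 below 0). For 11 macrophage markers they were 9658 to 11892 and 7949 to 8968 (11 of 11, with a median of -0.25), and for 9 neutrophil markers 48476 to 53447 and 42299 to 47024 (9 of 9). For 9 dendritic cell and MHC class II markers the sums were 8589 to 14803 and 6203 to 8499 (9 of 9), again highest in WT 497. The erythroblast markers, of which 6 of 7 were below 0 with a median of -0.10, summed to 37353 to 39508 in WT and 36020 to 37441 in KO, and 7 megakaryocyte markers to 6646 to 7053 and 6239 to 7517 (4 of 7 below 0). None of these 62 markers was called by limma. An unadjusted p under 0.05 was reached by 17, all lower in KO. Of all genes 12.7% were lower at that level (21.0% in either direction). The B cell markers made up 7 of the 17; their count was 3 without WT 497, 1 without KO 548 and 2 without KO 551. The macrophage median rested largely on WT 504, without which 8 of 11 were below 0 with a median of -0.08. The count of macrophage markers with an unadjusted p under 0.05 was 3 with all arrays and 2 without WT 504. Xcr1 among the dendritic markers and Hba-a1 among the erythroblast markers stayed under the 25th percentile on all arrays. The part of these cells in the values of Psmb8, Psmb9 and Psmb10 was not tested.

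**Figure D4:**
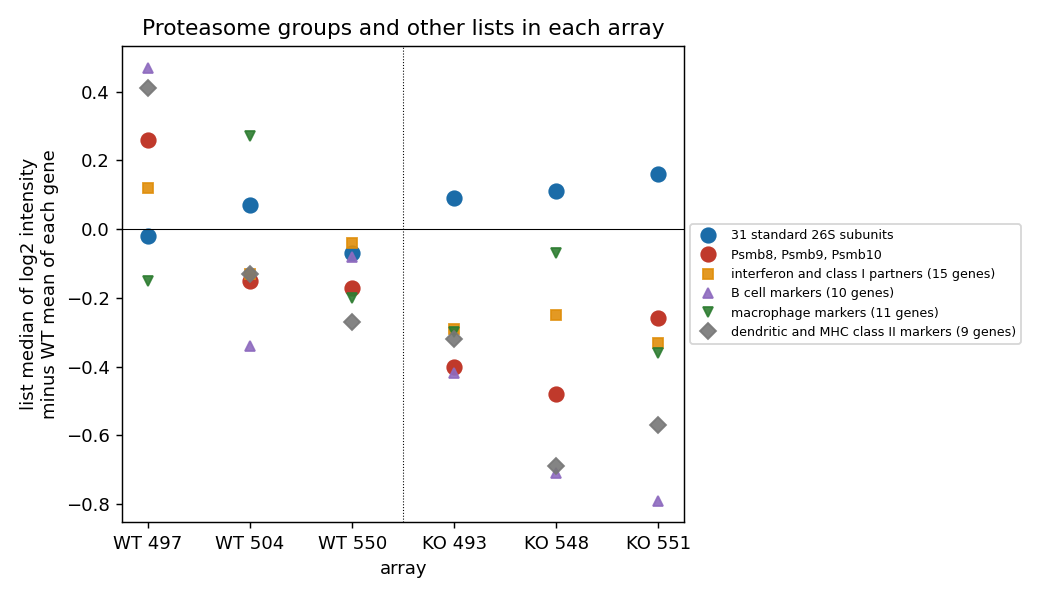
List medians of log2 intensity relative to each gene's WT mean, on each of the 6 arrays, for 31 standard subunits, the 3 immunoproteasome subunits, their interferon and class I partners and markers of immune cells. The standard subunits reach 0.09 to 0.16 in KO; the immunoproteasome subunits reach 0.26 in WT 497 and -0.48 to -0.26 in KO, beside 0.47 and -0.79 to -0.42 for the B cell markers.

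Promoters are shown for the 2 members called by any fit, Psmb3 and Psmd2, and for the exchanged pair Psmb5 and Psmb8. RefSeq (GRCm38.p6) promoters, 250 bases before to 50 after the start, were matched for 36 of 43 members; the others were Psma8, Psmb1, Psmb2, Psmb7, Psmc3, Psmd3 and Psmd7. The windows are chr11:97703184-97703483 on the plus strand, chr16:20651402-20651701 on the plus strand, chr14:54617946-54618245 on the minus strand and chr17:34197945-34198244 on the plus strand, in that order. Capitals mark matches, on either strand, to TGANTCAGC or TGACNNNGC (elements bound by NRF1 and NRF2, which overlap where the sequence fits both), CCAAT (NF-Y), the interferon-stimulated element of interferon regulatory factors, TTCNNNGAA (STAT factors) and GGGCGG (SP1).
Psmb3: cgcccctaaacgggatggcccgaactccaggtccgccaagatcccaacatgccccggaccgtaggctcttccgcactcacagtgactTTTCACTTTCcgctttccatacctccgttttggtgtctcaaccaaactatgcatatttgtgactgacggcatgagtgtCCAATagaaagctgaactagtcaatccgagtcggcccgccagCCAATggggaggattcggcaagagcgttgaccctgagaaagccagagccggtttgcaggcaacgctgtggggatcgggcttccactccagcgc
Psmd2: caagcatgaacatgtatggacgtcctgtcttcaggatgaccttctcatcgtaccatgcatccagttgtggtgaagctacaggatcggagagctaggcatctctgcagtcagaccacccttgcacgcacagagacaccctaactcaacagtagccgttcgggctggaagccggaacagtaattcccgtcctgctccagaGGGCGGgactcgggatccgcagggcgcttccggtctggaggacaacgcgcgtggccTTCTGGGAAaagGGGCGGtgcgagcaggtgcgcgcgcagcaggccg
Psmb5: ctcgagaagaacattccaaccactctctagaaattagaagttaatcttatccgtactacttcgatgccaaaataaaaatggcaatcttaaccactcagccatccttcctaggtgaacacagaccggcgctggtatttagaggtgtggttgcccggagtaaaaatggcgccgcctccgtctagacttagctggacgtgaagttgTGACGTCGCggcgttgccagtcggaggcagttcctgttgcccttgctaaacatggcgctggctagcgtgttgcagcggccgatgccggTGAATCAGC
Psmb8: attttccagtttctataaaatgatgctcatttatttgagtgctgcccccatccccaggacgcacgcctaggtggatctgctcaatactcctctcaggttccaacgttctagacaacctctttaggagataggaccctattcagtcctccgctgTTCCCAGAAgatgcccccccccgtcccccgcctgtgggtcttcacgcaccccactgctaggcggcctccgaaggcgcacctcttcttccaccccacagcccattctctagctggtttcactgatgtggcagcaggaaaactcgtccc

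Psmb3 held CCAAT at -85 and -43 and, on the minus strand, the interferon-stimulated element at -163, counted from the start site. Psmd2 held GGGCGG at -52 and 17 and a STAT element at 5. Psmb5 held TGACNNNGC at -47 and TGANTCAGC at 42, and was the only 1 of the 36 members with the longer of these, which 1.37% of all 27025 genes with a promoter held. Psmb8 held a STAT element at -97, and none of the 6 motifs was in the window of Psmb10. TGACNNNGC was in 6 of 36 members (16.7%, against 14.0% of all genes), CCAAT in 14 (38.9% against 41.1%), the interferon-stimulated element in 4 (11.1% against 3.99%), TTCNNNGAA in 2 (5.56% against 9.55%) and GGGCGG in 21 (58.3% against 38.2%). The 4 with the interferon-stimulated element were Psmb3, Psmd4, Psmd9 and Psme1, and all had differences above 0 (0.32, 0.18, 0.25 and 0.21), as 33 of all 43 members did. A link between motif and difference was not tested. A match describes the sequence only.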

How the data were processed

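Probe-set intensities were deposited by the authors after RMA, per the submitters' processing notes; the software, version and between-array scaling are not given in the sources used here. The medians over probe sets differ between the arrays. The deposited values are linear, and 100% equal a power of 2 with a 2-decimal exponent within 0.006, so they were returned to log2 with no pseudocount or further scaling. Of 45101 probe sets 64 controls were left out and 45037 tested in R 4.3.3 with lmFit and eBayes of limma 3.58.1 (KO against WT, no covariate), with Benjamini-Hochberg adjustment over all of them and a threshold of 0.05. The script was tested on simulated data with changes larger than any member difference here, so that test does not cover differences of this size. Standard errors and 95% intervals are limma's moderated ones, and the number of arrays limits precision. Gene names came from the annotation GEO holds for this array (34945 probe sets with 1 gene, 932 with several, 9160 with none). A match to RefSeq GRCm38.p6 for 99.1% of genes gave chromosomes and gene order.

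Members and lists were chosen with earlier results of these data known. Named members are those called, the 3 with the smallest p per role, and Psmb5 to Psmb10, Psme1, Psmd4, Psmd14 and Psmf1 (23 genes in all; Psme2 was planned); the other members are given for completeness. From each of the 5 pathway lists (49 genes) the 2 smallest p and Nfe2l1, Pomp, Tap1 and Irf1 were planned. Tap2 and Bach1 were added after their values were seen. Lists are described by counts and medians, with no set test.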

Additional observations from a re-analysis of the deposited data

How the results depend on the processing

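The count of called members was 0 in each alternative except the intensity trend with robust prior (2). Members with an unadjusted p under 0.05 numbered 4 as reported (3 higher, 1 lower). There were 18 with the trend (16 higher, 2 lower), 8 with a mean log2 of at least 6 and 14 with arrays centred on their medians (14 higher, 0 lower). An ordinary test gave 14, a block of low against high title numbers 2, and leaving out each array 0 to 6, with 0 without WT 497. It was also 0 without both WT 497 and KO 493, an alternative chosen after seeing the data. Shares of all genes at that unadjusted level are not given for these alternatives, so the counts have no background beside them. Centring on array medians shifted the median of all genes by 0.11, to 0.07, and moved the members' median from 0.11 to 0.22. It took calls over all genes from 70 to 178. Pathway genes called went from 0 to 5 with the trend and 4 with a mean log2 of at least 6, while calls over all genes went from 70 to 804 and 570. The interferon list had 4 to 9 genes with an unadjusted p under 0.05 over all settings, and the B cell list 1 to 8, with 1 in the ordinary test and 2 with the block. Centring took the macrophage median from -0.25 to -0.14 and Psmf1 from -0.22 to -0.11.

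Signs turned for members near 0. Centring gave 0.07 for Psmb7, 0.04 for Psmd5 and 0.01 for Psme3, and the block gave 0.01 for Psmb7. Leaving out each array gave -0.13 to 0.03 for Psmb7 and -0.02 to 0.13 for Psmd10. Psmb8 ranged from -0.31 to -0.04 over all settings, Psmb9 from -0.58 to -0.22, Psmb10 from -0.45 to -0.27 and Psmb3 from 0.26 to 0.43; the cause of these shifts was not tested. No paired analysis was possible because the genotypes share no title number. Dim signals limit Psmb11 and the second probe set of Psmb8.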
